A study of Mus musculus with 4 samples.

Results

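The genes described here are Ppara, Rxra, Nr1h3 and Nr1h4, which encode PPARalpha, RXRalpha, LXRalpha and FXR. These 4 genes, out of 10925 gene names with a listed start, were taken by name as lipid-sensing nuclear receptors of the liver. All listed regions within 200 kb of any of their listed starts were then collected, which gave 38 of the 11602 regions in sham liver and 29 of the 10170 regions after hepatectomy. H3K27ac, an acetylation of histone H3 found at active promoters and enhancers, had been mapped by CUT&Tag, in which an antibody brings a DNA-cutting transposase to the mark. The sham group was 2 libraries from the liver of C57/BL6J mice, sham operated, with no time given in the sample labels. The PHx 12 h group was 2 libraries from C57/BL6J liver 12 h after a 70% hepatectomy, the removal of most of the liver that sets off its regrowth. No allele or other agent is named for either group, and whether the 2 libraries of a group came from different animals is not stated. The series' design text gives 0 h beside 12 h, so effects of the hour of sampling cannot be told apart from those of the operation.

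Nuclear receptors are transcription factors that a small molecule switches on. PPARalpha binds fatty acids and drives their oxidation in hepatocytes, LXRalpha binds oxidised cholesterol and drives cholesterol export and lipogenesis, and FXR binds bile acids and holds back their synthesis. Each of these receptors binds DNA as a pair with RXRalpha, at repeats of a short half-site whose spacing and orientation differ between the pairs.

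The deposited tables hold 1 merged list of regions per group, with positions and widths in GRCm39 and no signal. Sequencing depth is therefore unknown, the spread between replicates could not be measured, and groups could not be tested against each other. Every region joins at least 1 peak of each library of its group. Regions after PHx were fewer and wider across the genome, with a total length of 196.9 Mb against 121.5 Mb in sham, so the values of the 4 genes are set beside those of all protein-coding genes. Of 10 hepatocyte markers 7 had a listed start, 6 of them with a promoter region in both lists and Cps1 in PHx only. Of 7 endothelial markers with a listed start 5 had one in PHx only, as 15.4% of all protein-coding genes with a listed start did, and the other 2 in neither list. Among macrophage markers 2 of 4 were in PHx only and 2 in both, stellate markers had 1 of 2 in PHx only, and Sox9, a bile duct marker, was in both. The PHx regions of Lyve1, Csf1r and Colec11 met 2, 1 and 1 sham regions away from the start. Those of the other markers in PHx only met 0. None of the 10 neutrophil, monocyte and lymphocyte markers had a listed start. The part of cell composition in the results below was not tested, and in whole tissue more cells of a type and more of the mark per cell cannot be told apart.

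The promoter windows shown here differ in base composition. RefSeq lists start sites for all 4 genes in the GRCm38.p6 assembly, and the 250 bases before 5 of them are shown because these starts lie in stretches that were acetylated in both lists. For Nr1h4 the inner start alone is shown, although the outer listed start also lay in a region in both lists. The sequences run 5′ to 3′ on the gene's strand, and capitals mark matches, on either strand, to the receptor half-site AGGTCA or to the GC box GGGCGG.
Rxra, outer start, chr2:27676951-27677200, + strand: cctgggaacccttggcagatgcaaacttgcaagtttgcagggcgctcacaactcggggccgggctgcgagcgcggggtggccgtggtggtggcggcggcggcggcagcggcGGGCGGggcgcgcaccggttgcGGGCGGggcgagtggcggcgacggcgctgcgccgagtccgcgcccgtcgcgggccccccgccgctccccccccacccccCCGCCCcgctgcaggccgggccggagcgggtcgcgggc
Rxra, inner start, chr2:27709042-27709291, + strand: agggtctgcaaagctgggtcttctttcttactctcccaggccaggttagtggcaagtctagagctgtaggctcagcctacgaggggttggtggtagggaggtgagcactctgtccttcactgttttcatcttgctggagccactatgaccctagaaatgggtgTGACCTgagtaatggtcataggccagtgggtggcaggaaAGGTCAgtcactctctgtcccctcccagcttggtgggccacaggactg
Ppara, chr15:85735526-85735775, + strand: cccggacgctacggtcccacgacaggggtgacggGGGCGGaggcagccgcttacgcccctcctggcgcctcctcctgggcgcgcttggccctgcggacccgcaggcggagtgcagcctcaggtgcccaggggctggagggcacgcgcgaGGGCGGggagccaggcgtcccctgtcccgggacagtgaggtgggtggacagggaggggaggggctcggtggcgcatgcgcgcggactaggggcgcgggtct
Nr1h3, chr2:91195117-91195366, - strand: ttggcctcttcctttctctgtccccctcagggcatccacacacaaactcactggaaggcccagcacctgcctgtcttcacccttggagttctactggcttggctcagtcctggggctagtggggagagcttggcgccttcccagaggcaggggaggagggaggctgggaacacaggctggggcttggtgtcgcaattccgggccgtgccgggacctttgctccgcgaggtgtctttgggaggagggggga
Nr1h4, inner start, chr10:89506659-89506908, - strand: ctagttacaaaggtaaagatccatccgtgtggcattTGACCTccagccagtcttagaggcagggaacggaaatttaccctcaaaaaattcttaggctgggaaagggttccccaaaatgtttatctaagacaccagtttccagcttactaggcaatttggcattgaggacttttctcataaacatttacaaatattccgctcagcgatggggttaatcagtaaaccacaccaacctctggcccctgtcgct

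The outer Rxra window held 40 CpG dinucleotides and the Ppara window 27, against a median of 6 over all 32851 RefSeq promoter windows of this length. Only 1.31% and 8.56% of windows had as many. The Nr1h3 window with 7, the Nr1h4 window with 5 and the inner Rxra window with 1 were near or below the median. GC boxes, the sites of Sp1-type factors, were found 3 times at the outer Rxra start and 2 times at Ppara, and 32.7% of all windows hold one. The half-site occurred 2 times at the inner Rxra start and 1 time at Nr1h4, where it is on the opposite strand and the capitals read TGACCT, and 14.0% of windows hold one. Full repeats were searched as DR1 (AGGTCANAGGTCA), DR4 (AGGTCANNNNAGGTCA) and IR1 (AGGTCANTGACCT), the arrangements classically bound by PPAR, LXR and FXR with RXR. None of the 5 windows matched one, and these letters are also rare elsewhere, in 0.0335%, 0.0152% and 0.00609% of windows. TATAAA and CCAAT, in 12.4% and 33.8% of windows, were absent from all 5.

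These windows belong to starts of another assembly, and they were tied to the starts in the region tables through the distance to the gene's far end, on the assumption that this end is the same in both. The Nr1h4 start lay 52425 bp from it, as did the inner listed start. The Nr1h3 start lay 81 bp further out than the listed one. The inner Rxra start, 32485 bp from the listed one, is in the gene body. The outer Rxra start and the Ppara start lay 394 and 865 bp inside the most upstream starts listed in the tables.

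All 4 genes had an acetylated region over their most upstream listed start in both lists, where 66.0% of 7089 protein-coding genes with a listed start did. A further 15.4% of all such genes had one in PHx only and 9.78% in sham only. A promoter region is here the widest region that reaches within 1 kb of the start. The 4 genes went in different directions. Ppara and Nr1h4 had regions more than 2-fold wider after PHx, Rxra had the same width to within 1%, and the region at Nr1h3 was less than 1/2 as wide. Of 4682 protein-coding genes with a promoter region in both lists 40.0% were more than 2-fold wider, so 2 of 4 is near the background. Narrower regions were less common among all genes, since 8.63% of genes were narrower at all and 0.406% by more than 2-fold. The median ratio of width, PHx over sham, was 1.72 over all these genes (quartiles 1.24 and 2.71).

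**Figure D1:**
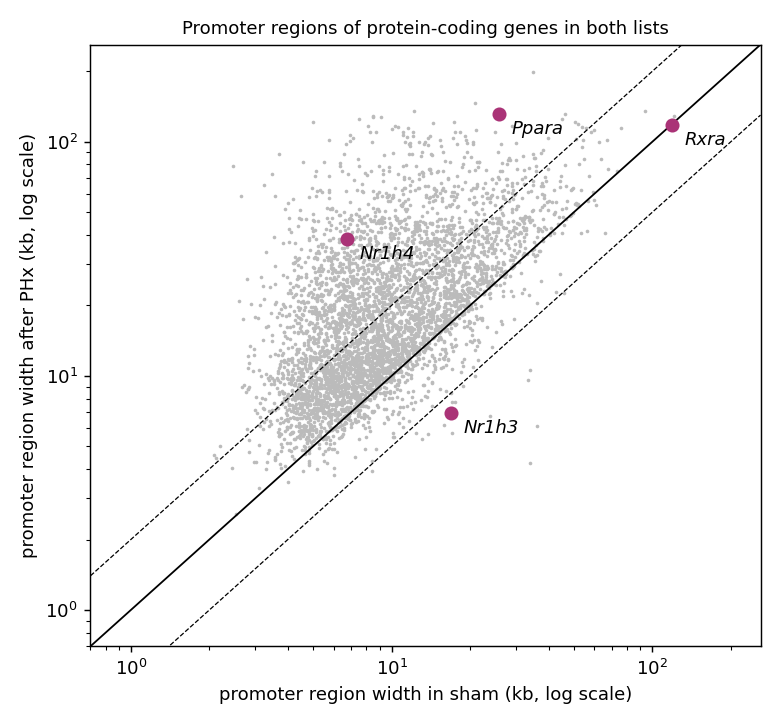
Width of the promoter region in sham (x axis, kb, log scale) and after PHx (y axis, kb, log scale) for 4682 protein-coding genes with a region in both lists (grey points); the solid line is equal width and the dashed lines are 2-fold wider and narrower. Ppara (25.7 and 130.9 kb) and Nr1h4 (6.73 and 38.4 kb) lie above the upper dashed line, Rxra on the line of equal width and Nr1h3 (16.9 and 6.95 kb) below the lower dashed line.

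Rxra, the shared partner of the other receptors, sat in one of the widest acetylated domains of the liver in both groups. On chromosome 2 the region ran from 27552725 to 27671302 in sham, 118578 bp, and from 27554823 to 27672667 after PHx, 117845 bp. It was the 3rd widest region of the sham list and the 22nd widest of the PHx list. The ratio of width was 0.994. Both ends moved by little, the upstream end by 2098 bp towards the gene and the downstream end by 1365 bp away from it. The overlap of 116480 bp made up 98.2% of the sham region and 98.8% of the PHx region. In both groups library 1 had 2 peaks in the domain and library 2 had 1.

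The domain covered the whole Rxra gene. The listed transcript spans 27566457 to 27652969, and all 86513 bp lay inside the region in both lists. Of 1916 protein-coding genes at least 50 kb long, 0.209% were covered to 95% or more in both lists, namely Rxra, Eva1a, Gna12 and Nfix. The median cover of such long genes was 9.06% in sham and 19.2% after PHx. A ratio near 1 was common among genes with very wide sham regions: 70 genes had a sham promoter region of at least 40 kb, a limit chosen after the values were seen, and their median ratio was 1.18 (quartiles 1.003 and 1.51), with 15 of them narrower after PHx.

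Upstream of Rxra the single regions were wider after PHx, in part through joining. The nearest, an intergenic region assigned to Rxra, measured 29149 bp in sham, ending 27852 bp before the start, and 42766 bp after PHx, ending 17206 bp before it. Farther out, at the noncoding gene Gm39776, sham regions of 35628 and 18690 bp met a single PHx region of 53624 bp, so the covered length there was slightly smaller after PHx. At Brd3, which encodes a reader of acetylated histones, the promoter region went from 20102 to 26243 bp. The region at Wdr5, a subunit of histone methyltransferase complexes, went from 4537 to 7223 bp. A second start of Brd3 had a region of 7333 bp in PHx only, and no peak of either sham library was left out of the list in that stretch. Such unlisted peaks were counted from gaps in the numbers that the authors gave to each library's peaks. They lie somewhere between the flanking listed regions of their own group, and their exact place is not known. Of the 6 other regions in the Rxra window, then, 0 were in sham only and 1 was in PHx only. No listed region of either group lay downstream of the Rxra domain within the window.

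**Figure D2:**
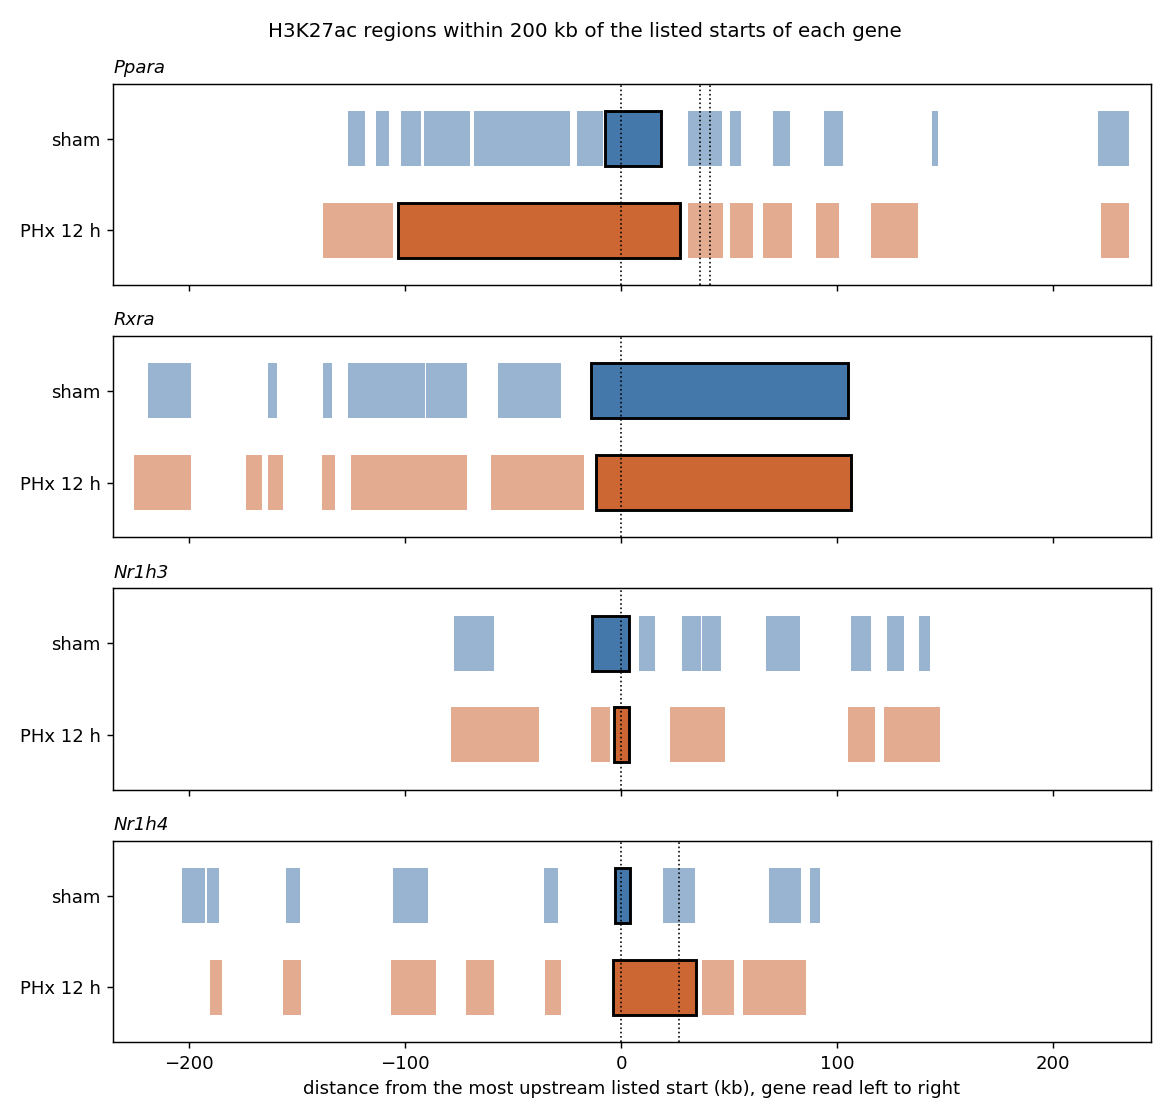
Regions within 200 kb of the listed starts of each gene, in sham (blue) and after PHx (orange), by distance in kb from the most upstream listed start (x axis), with each gene read from left to right. Outlined boxes are the promoter regions, paler boxes all other regions and dotted lines the listed starts; the outlined PHx box of Ppara covers 5 sham boxes, the outlined sham box of Nr1h3 covers 2 PHx boxes, and the outlined boxes of Rxra match.

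Ppara, the fatty acid receptor, lay at the edge of an acetylated stretch that was broken into pieces in sham and continuous after PHx. On chromosome 15 its most upstream start, at 85619112, had a sham region from 85611719 to 85637442, 25724 bp wide. After PHx the region over this start ran from 85515675 to 85646576 and was 130902 bp wide, the 9th widest of the PHx list. The ratio of width was 5.09. Nearly all of the difference was upstream, where the end moved by 96044 bp, against 9134 bp downstream.

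The single PHx region at Ppara covered 5 sham regions, which occurs at 1.26% of the 4682 promoters for 5 or more and at 29.6% for 2 or more. Beside that at Ppara they measured 11908 bp at the noncoding gene Gm46529, 44370 and 21635 bp at Lncppara, and 9588 bp in an intergenic stretch assigned to Wnt7b. Gaps between these neighbours were 1071 to 3356 bp. Together the sham regions already covered 113225 bp, or 86.5%, of the PHx span, so the ratio of covered length within it was 1.16. The median of that ratio over all genes was 1.41. After PHx library 1 had 1 peak across the region and library 2 had 6, a number that 4 regions of the PHx list reached. The stretch was thus continuous in the peaks of library 1 and broken in those of library 2, whose own borders the merged list does not hold. In sham the order was the other way round: at the 4 regions upstream of the Ppara one, library 2 had 1 peak each and library 1 had 1 to 3.

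The PHx domain covered the listed starts of 3 noncoding genes beside Ppara. They were Gm46529, Gm34622 and Lncppara, at 11061, 22965 and 31138 bp from the Ppara start. The whole Lncppara transcript, 85587974 to 85591725, lay inside it, and in sham it lay inside the 44370 bp region. Lncppara is the host of 2 let-7 microRNA genes, Mirlet7c-2 and Mirlet7b, whose RefSeq positions fall within the host gene in GRCm38.p6. Their mature 5p products are shown because the domain joins them to the Ppara promoter. Capitals mark the seed, bases 2 to 8, which is the same in both.
mmu-let-7c-5p: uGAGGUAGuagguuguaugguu
mmu-let-7b-5p: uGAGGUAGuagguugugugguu

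Of the 3 listed Ppara starts only the most upstream was in the widened region. The other starts, 36408 and 41083 bp downstream, shared a region of 16027 bp in sham and 16127 bp after PHx, a ratio of 1.01. A region over the 5′ UTR, still further in, went from 5169 to 10325 bp. Over the gene body of 71941 bp the covered share was 57.3% in sham and 83.8% after PHx. The medians of protein-coding genes at least 50 kb long were 9.06% and 19.2%. The upstream stretch and the gene body thus were longer in cover after PHx, as at the median gene. The region over the inner starts kept its width.

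Around Ppara, regions at the next genes downstream were mostly shared. The promoter region of Cdpf1 measured 8059 and 13677 bp and that of Ttc38 8897 and 10691 bp. At Gtse1, a gene of the late cell cycle, a region of 22048 bp was in PHx only, and at Trmu, a transfer RNA modifying enzyme, one of 3022 bp was in sham only. For both, each library of the other group had 1 unlisted peak somewhere between the flanking listed regions. Whether the mark was called at the same place in both groups is therefore not known. An exon region of Celsr1 measured 14412 and 13311 bp.

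Nr1h4, the bile acid receptor gene, had 2 separate promoter regions in sham that were 1 region after PHx. On chromosome 10 the sham region over the outer start, at 89369484, ran from 89365392 to 89372117 and was 6726 bp wide. That over the inner start, at 89342520, ran from 89335388 to 89350018 and was 14631 bp wide. After PHx both starts lay in a region of 38443 bp, from 89334842 to 89373284. The width ratio was 5.72 counted at the outer start and 2.63 at the inner one.

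Here the covered length differed as well. The gap between the sham regions was 15373 bp, and they covered 21357 bp, or 55.6%, of the PHx region. The ratio of covered length was 1.80, between the median of all genes, 1.41, and their upper quartile, 1.83. The outer end moved by only 1167 bp and the end within the gene by 30550 bp. Library 1 had a single peak in the PHx region and library 2 had 2, so at Nr1h4 too the region was continuous in library 1 and broken in library 2. Of all 10170 PHx regions 1173 were split in library 2 alone and 246 in library 1 alone, so this difference between the libraries runs through the whole PHx list.

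Listed regions also covered more of the Nr1h4 gene after PHx. A region of 14930 bp over exon 3 (89317052 to 89331981) was in PHx only. Between the flanking sham regions, and so within the gene, sham library 1 had 1 and sham library 2 had 2 unlisted peaks. Whether the mark was called at the same place in both groups is therefore not known. The region at the far end of the gene, assigned to the 3′ UTR of the neighbour Gas2l3, went from 14980 to 29421 bp. In all, listed regions covered 91.5% of the 79389 bp gene body after PHx and 37.4% in sham, where unlisted peaks do not count. The median cover of protein-coding genes at least 50 kb long was 19.2% after PHx and 9.06% in sham. The Gas2l3 promoter itself had a region of 4302 bp in sham only. PHx library 2 had 1 unlisted peak somewhere between the flanking PHx regions, the farther of which lies outside the window.

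The intergenic mark upstream of Nr1h4 was alike in both lists. The intergenic region assigned to the gene measured 6216 bp in sham, 29278 bp from the start, and 7474 bp after PHx, 27934 bp from it. At Slc17a8, a vesicular glutamate transporter gene, the main promoter region went from 15981 to 20963 bp. Another start had a region of 13029 bp in PHx only, with 1 unlisted peak of sham library 2 between the flanking sham regions. A region of 5612 bp inside Actr6 had a PHx counterpart of 5213 bp. The Actr6 promoter region of 10675 bp was in sham only, with 1 unlisted peak of PHx library 1 between the flanking PHx regions.

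Nr1h3, the oxysterol receptor gene, was the member with the narrower region, and it was a split. In sham a single region of 16937 bp on chromosome 2 (91021812 to 91038748) covered the Nr1h3 start at 91025380 and that of Acp2, lysosomal acid phosphatase, 7777 bp away. After PHx there were 2 regions, 6953 bp at Nr1h3 (91021887 to 91028839) and 8425 bp at Acp2 (91030693 to 91039117), with a gap of 1853 bp between them. The width ratio at Nr1h3 was 0.411. The outer ends nearly matched: the end inside the gene moved by 75 bp, and PHx regions covered 15009 bp, or 88.6%, of the sham span. The ratio of covered length was thus 0.886.

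A sham promoter region that met 2 or more PHx regions was found at 1.05% of the 4682 promoters. The PHx region at Nr1h3 was narrow for its list, wider than 6.77% of PHx regions, while the sham region was wider than 87.1% of sham regions. Sham library 1 had 1 peak in the joined region and sham library 2 had 2. After PHx each library had 1 peak in each of the 2 regions. The sham region was thus continuous in library 1 and broken in library 2, as the joined PHx regions at Ppara and Nr1h4 were in the libraries of that group. Of all 11602 sham regions 551 were split in library 2 alone and 776 in library 1 alone.

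The tables list 1 Nr1h3 start, in the PHx list only, because the authors' annotation gave the sham region to Acp2. By that assignment 3 of the 4 genes, not 4, had a region in both lists. Other Nr1h3 starts exist: the RefSeq gene model is 18769 bp long in GRCm38.p6 and the listed transcript 10975 bp, a difference of 7794 bp, close to the distance between the Nr1h3 and Acp2 starts in the tables. For the other 3 genes that difference was at most 362 bp. Within the Nr1h3 gene itself the regions covered 58.4% of the listed transcript in sham and 31.8% after PHx, since in sham a region over the neighbouring Madd start reached its far end.

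Around Nr1h3 several sham regions were missing or merged after PHx. A region of 7489 bp at a Madd start, 8138 bp downstream of the Nr1h3 start, and one of 15711 bp at Mybpc3 were in sham only. Between the PHx regions flanking each of them, PHx library 2 had 1 and 2 unlisted peaks and PHx library 1 had 0. Inside Madd, sham regions of 8754 and 8674 bp met a PHx region of 25730 bp. Spi1, the gene of the macrophage and B cell factor PU.1, had a promoter region of 9297 bp in sham and 12433 bp after PHx. On the far side, the Arfgap2 region of 18534 bp lay in a PHx region of 40676 bp.

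**Figure D3:**
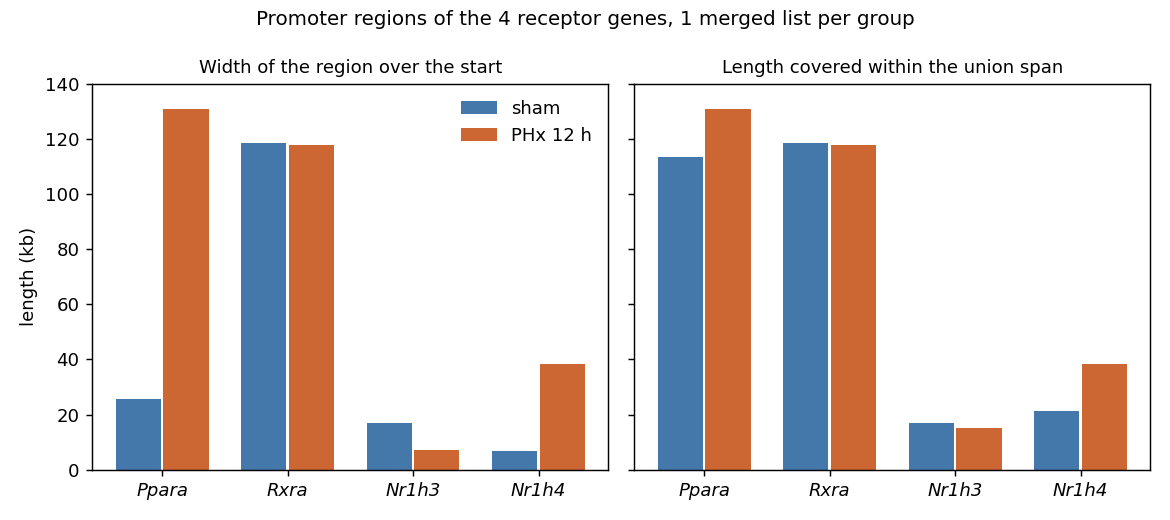
Left, width in kb (y axis) of the region over the most upstream listed start of each gene in sham (blue bars) and after PHx (orange bars); right, the length in kb covered by all regions of each group within the span of those 2 regions. Each bar is 1 merged list and has no error; the differences of 5.09-fold at Ppara and 0.411-fold at Nr1h3 on the left are 1.16 and 0.886 on the right, and Nr1h4 is 5.72 and 1.80.

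Acetylated length in a fixed window counts separate neighbours too, although it still grows by the gaps that are filled when they are joined. This length was larger after PHx around all 4 genes, as it was for 92.8% of the 7089 protein-coding genes. Within 200 kb of the most upstream start the Ppara window held 168208 bp in sham and 236443 bp after PHx, a ratio of 1.41. For Rxra the window held 211730 and 235497 bp, a ratio of 1.11. Nr1h3 had 98124 and 120178 bp, a ratio of 1.22, and Nr1h4 had 82434 and 137750 bp, a ratio of 1.67. The median gene had a ratio of 1.52 (quartiles 1.26 and 1.91), so the windows of Rxra and Nr1h3 lay below the lower quartile, and those of Ppara and Nr1h4 between the quartiles. Within 50 kb Nr1h3, at 1.27, was between the quartiles of 1.12 and 1.95 too.

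Close to the start the 4 genes fell in 2 pairs by level. Within 50 kb regions covered 85.9% of the Rxra window in sham and 94.4% after PHx, and 79.8% and 93.6% of the Ppara window. The Nr1h3 window was covered to 41.9% and 53.0% and the Nr1h4 window to 27.6% and 58.4%. The medians over all genes were 18.0% and 30.3%. Thus all 4 lay above the median gene in both groups, and Nr1h4 had the largest ratio of the 4, 2.12, where the upper quartile of all genes was 1.95.

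**Figure D4:**
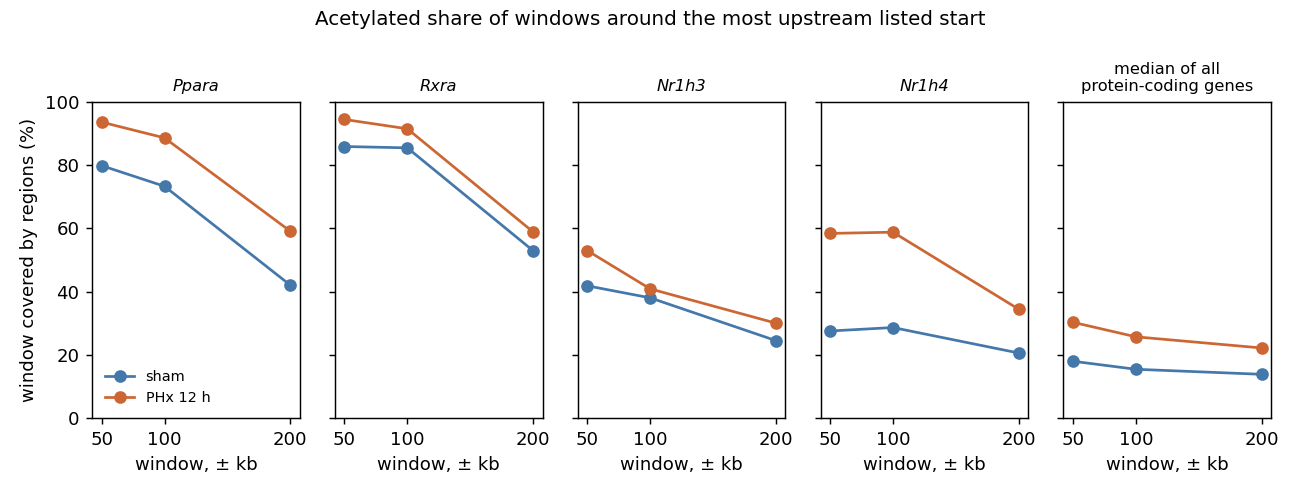
Share of the window covered by regions (y axis, %) for windows of 50, 100 and 200 kb on each side of the most upstream listed start (x axis), in sham (blue) and after PHx (orange), for the 4 genes and for the median protein-coding gene. Rxra and Ppara start at 79.8% or more within 50 kb, and of the 4 genes the groups lie furthest apart within 50 kb at Nr1h4, with 27.6% and 58.4%, and within 200 kb at Ppara, with 42.1% and 59.1%.

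Leaving out the regions over the members' own starts, 32 sham and 24 PHx regions lay in the 4 windows, of which 13 and 9 were outside promoters by the authors' annotation. Of these regions 5 were in sham only and 4 in PHx only when any shared base counts, while 14.0% of the whole sham list and 22.5% of the whole PHx list shared no base with the other. With a reciprocal overlap of 50% the numbers were 18 and 10, where the shares of the whole lists were 57.9% and 52.0%. The 4 windows thus held no larger a share of unmatched regions than the lists by 3 of these 4 counts, and about the same by that of sham regions sharing no base. The regions closest to the limit of 200 kb were those of Brd3 in the Rxra window, 198941 bp from the start in sham and 199019 bp after PHx. Just beyond it lay regions at Gm30963, 207327 bp from an Nr1h4 start in sham, and at Celsr1, 207443 bp from a Ppara start after PHx.

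Across all genes, the pairs of promoter widths most like those of each member were found by distance on the log2 scale over the 2 groups. Nearest to Ppara were Furin (28960 and 117033 bp), Akt1s1 and Cmip. Nearest to Rxra was Mtss1 with 120721 and 128496 bp, then Shb and Lrig1. For Nr1h3 they were Pdlim7 (16444 and 6728 bp), Rusc1 and Ap1m1, and for Nr1h4 Rnf141 (6447 and 38368 bp), Cenpb and Fzr1. The distance was 0.64 or less for all of these.

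Other nuclear receptors mostly had wider regions after PHx, as most genes did. Of 27 on the list 18 had a listed start, 15 with a promoter region in both lists, 1 in PHx only, 1 in sham only and 1, Pparg, in neither. Of the 15, 8 were more than 2-fold wider after PHx and 0 narrower, where 40.0% of all genes were more than 2-fold wider and 8.63% narrower. Their median width ratio was 2.10 beside 1.72 for all genes, but their median ratio of covered length was 1.25 beside 1.41, so the order turned once joined neighbours were counted. The ratio was largest at Nr3c1, the glucocorticoid receptor (8078 and 43878 bp, 5.43), Nr2f2 (3.53) and Rara, the retinoic acid receptor alpha (3.35). Covered length at Nr3c1 and Rara had ratios of 1.59 and 1.25, and at Nr2c1 it was below 1. The width ratio was smallest at Rora (59112 and 61203 bp, 1.04) and at Nr0b2 (14825 and 15705 bp, 1.06), which encodes SHP, the repressor that FXR induces. Rarb was in PHx only (11213 bp) and Nr2c2 in sham only (3537 bp). Rxrb, Rxrg and Nr1h2, the close relatives of Rxra and Nr1h3, had no listed start.

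Coregulators carry the receptors' effect to chromatin. Of 18, 14 had a listed start, 10 were in both lists and 5 of these were more than 2-fold wider, near the 40.0% of all genes. The median width ratio was 2.13 beside 1.72 for all genes, and that of covered length 1.62 beside 1.41. Crebbp, an acetyltransferase that itself writes H3K27ac, and Tbl1x, a corepressor subunit, were in PHx only with 10891 and 21473 bp. The coactivator genes Ncoa3 (4.53) and Ncoa2 (2.44) and the corepressor gene Nrip1 (2.38) had the largest width ratios, and covered length at Ncoa3 and Ncoa2 had ratios of 1.68 and 1.55. Lpin1, a lipid phosphatase that also acts as a coactivator, was slightly narrower after PHx (7892 and 7464 bp, 0.946).

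Classical targets of PPARalpha had a median width ratio below that of all genes. Of 32 targets 22 had a listed start and 19 a region in both lists, of which 7 were more than 2-fold wider, again near 40.0%. The median ratio was 1.30 for width and 1.13 for covered length. Acadvl, an enzyme of fatty acid oxidation, went from 4381 to 43879 bp (10.02), Cpt1a, the gate of mitochondrial fatty acid import, had a ratio of 5.42 and the lipase inhibitor gene G0s2 2.62. With neighbours counted, covered length at Acadvl and Cpt1a had ratios of 1.69 and 1.04. Acaa1a, a peroxisomal thiolase, had nearly equal widths (13330 and 13369 bp). Cyp4a14 and Pdk4 were in PHx only and Slc25a20, the carnitine carrier, in sham only (3681 bp).

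LXR targets had a median width ratio above that of all genes. Of 22, 15 had a listed start, 10 were in both lists, and 8 of these 10 were more than 2-fold wider, where the share of all genes was 40.0%, with a median ratio of 3.20; Abcg5 and Abcg8, a pair of sterol transporter genes, share 1 region and count as 2. The largest ratios were at Rnf145 (5951 and 32535 bp, 5.47), Elovl6 (4.95) and Pltp, the phospholipid transfer protein (4.49). Covered length had ratios of 1.17 at Elovl6, where 4 sham regions were joined, and 1.59 at Pltp, and 5.47 at Rnf145, where none were. Apoc1 (1.46) and Fasn, fatty acid synthase (1.45), had the smallest. Abcg1, a cholesterol exporter, was in PHx only with a region of 57311 bp that met 2 sham regions away from the start. So was Mylip (7952 bp), which lowers the LDL receptor. Scd1, a fatty acid desaturase (9357 bp), and Lpl, lipoprotein lipase (5787 bp), were in sham only. The median ratio of covered length in this list was 1.52, against 1.41 for all genes.

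FXR targets had a median width ratio of 1.499, below the 1.72 of all genes, and a median ratio of covered length of 1.22. Of 22, 15 had a listed start, 14 were in both lists and 5 of these were more than 2-fold wider, near the 40.0% of all genes; Cyp7a1 was in neither list. Pltp, which is on this list too, Sdc1 (23045 and 60250 bp, 2.61) and the bile acid importer gene Slc10a1 (9346 and 20592 bp, 2.20) had the largest width ratios, with covered length at 1.52 for Sdc1 and 1.68 for Slc10a1. The smallest were at Nr0b2 and at Slco1b2, another importer (15660 and 16577 bp, 1.06). The bile salt export pump gene Abcb11 had 7945 and 12118 bp, a ratio of 1.53.

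**Figure D5:**
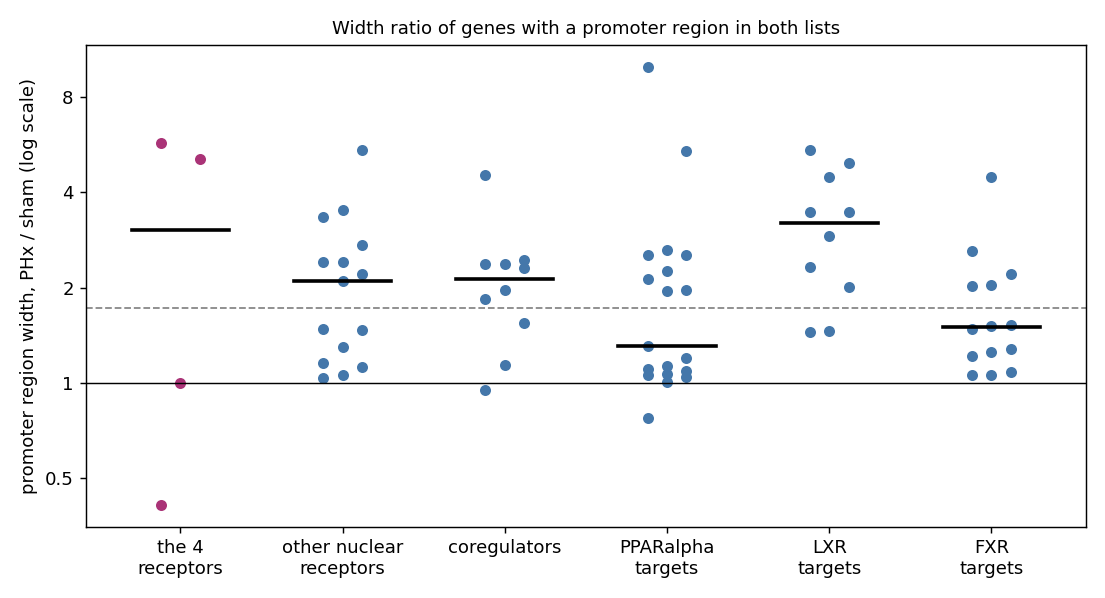
Ratio of promoter region width, PHx over sham (y axis, log scale), for each gene with a region in both lists, in the 4 receptors and 5 lists of related genes; black bars are medians, the solid line is equal width and the dashed line the median of all genes, 1.72. The medians run from 1.30 for PPARalpha targets to 3.20 for LXR targets, and Nr1h3 is the only point below 0.5.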

How the data were processed

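Per the labels' protocols, nuclei of flash-frozen liver were processed by CUT&Tag with an anti-H3K27ac antibody and sequenced as paired-end reads. Builds GRCm39 and mm39 and the tools DiffBind, ChIPseeker, SEACR and Bowtie2 appear in the submitters' processing notes, with no version, role or threshold. The deposited tables, per the file headers, hold region positions, widths in bp, annotation class, assigned transcript and the joined peaks of both libraries.

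A gene's start was the most upstream one listed in either table, and its promoter region the widest region within 1 kb of it. Covered length is the sum of a group's regions within the span of both groups' promoter regions. Peak numbers ran in genomic order in all 4 libraries, so numbers missing between neighbouring regions were counted as unlisted peaks. Where between those regions such a peak lies is not known. Biotypes and sequences came from RefSeq (GRCm38.p6), matched by symbol; 266 of 10925 names had no match, and all 4 members matched. Python 3.11.15 and pandas 2.3.3 were used, and the functions were tested on simulated regions.

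The members and gene lists were chosen with earlier results of these data known. Named genes in each list are up to 4 in one list only and, of those in both, the 3 largest and 2 smallest ratios; Pparg, Cyp7a1, Abcg5, Abcg8 and Abcb11 were added after their values were seen, and some genes that the rule names are not reported here. Alternatives were other windows, starts, overlaps and folds.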

Additional observations from a re-analysis of the deposited data

How the results depend on the processing

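Of 39 alternative values for 16 results, 31 stayed within 1.5 times the reported value and 8 moved further. None of the ratios changed direction, and for the results that are counts a change of direction is not defined. Covered length could not change it where the PHx region (Ppara, Nr1h4) or the sham region (Nr1h3) was itself the whole span. Rxra and Nr1h3 have a single listed start, so for them the most downstream start was the same start. Taking the start base alone, or 3 kb on each side of it, changed no width ratio of the 4 genes. With the most downstream listed start the ratio was 1.01 at Ppara and 2.63 at Nr1h4. With covered length in place of width it was 1.16 at Ppara, 0.886 at Nr1h3 and 1.80 at Nr1h4. A reciprocal overlap of 50% gave 18 neighbouring regions in sham only and 10 in PHx only. At a fold of 1.5, 8 of the 10 coregulators in both lists were wider after PHx, against 5 at a fold of 2. The median ratio of all genes, 1.72, was itself above 1.5.

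No paired analysis was possible because the tables hold merged regions and no value per library. Leaving out a replicate was not run for the same reason, so each width rests on the union of 2 libraries. Depth is unknown, and absence from a list does not show absence of the mark.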
